A study of Homo sapiens with 12 samples.

Results

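The comparison described here set mammary epithelial acini grown with 18-alpha-glycyrrhetinic acid (AGA) against acini grown with vehicle, 4 arrays in each group. Its members are 8 of the series' 12 arrays, chosen by sample title and paired by the replicate number (1 to 4) that the title carries. All cultures were of HMT-3522 S1, an established non-neoplastic human breast epithelial line, at passage 55 to 60, plated at 35000 cells per cm2 and grown in 3 dimensions with 5% Matrigel. Every group had the same defined medium with insulin, transferrin, selenite, oestradiol, hydrocortisone and prolactin, with EGF for 8 days and then without it for 48 hours. The vehicle cultures are labelled polarized, and the labels do not say what the vehicle was. AGA was given at 10 µM from plating, renewed every 2 days for 10 days, and these cultures are labelled as not polarized. The remaining 4 arrays came from cultures given 5-aza-2'-deoxycytidine (Aza) at 10 µM on the same schedule, also labelled as not polarized. They shared the normalization and the estimate of spread, and their values stand beside those of AGA where a gene is described. The series calls its replicates biological, so the p-values measure variation between cultures of 1 cell line.

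An acinus is a single layer of epithelial cells around a lumen, with basement membrane on the outside and tight junctions towards the lumen. Gap junctions, built from connexins, join the cytoplasm of neighbouring cells. AGA, a triterpenoid related to the liquorice compound, blocks them, and glycyrrhetinic acids also inhibit the enzymes that convert cortisol and cortisone into each other. The comparison addresses which transcripts differ in acini that lack apical polarity under AGA.

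Levels are log2 intensities after a floor of 1 and quantile normalization over the 12 arrays, so 0 is the floor, and a difference is AGA minus vehicle on that scale. The SE beside a difference comes from the limma fit over all 12 arrays, and n is the number of arrays per group. It is not the SE of the 4 pair differences. Their SD was, for example, 0.74 for HLA-B and 0.092 for CCDC51, where the SE of the fit was 0.24 and 0.083. The basal keratin KRT5 had mean levels of 12.45 in vehicle and 12.46 in AGA, and KRT14, CDH1, EGFR, GATA3 and ITGB4 were also well above the floor. KRT19 was at 0 on all 8 arrays, and EPCAM was near the floor, at 0.79 in vehicle and 2.30 in AGA. The summed linear intensity of 16 epithelial markers was 11482 to 17035 in vehicle and 15920 to 18437 in AGA. That of 14 fibroblast markers was 328 to 795 and 294 to 580, that of 13 leukocyte markers 75.0 to 114 and 72.7 to 130, and that of 14 endothelial and adipocyte markers 326 to 464 and 243 to 373. LUM and LYZ were at or near 0, while FBLN1, COL1A1, KDR and CIDEC had vehicle means of 7.49, 7.25, 7.69 and 6.22, and 0 members of the 4 marker lists passed the test. Median deposited intensity was 29.6 to 35.9 on the vehicle arrays and 23.3 to 30.2 on the AGA arrays, and 5.26% to 7.94% of the values of an array lay under the floor. The 3' to 5' signal ratio of GAPDH was 1.15 to 1.30 in vehicle and 1.17 to 1.38 in AGA. That of ACTB was higher, at 2.39 to 3.48 in vehicle and 2.76 to 2.99 in AGA. The first principal component, 16.4% of the variance, set the replicate 4 array of every group (69.3 to 84.5) apart from the others (at most -12.0). RNA came from whole cultures, so fewer cells of a type and less RNA per cell cannot be told apart.

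Of 22215 probe sets, 156 passed a limma adjusted p of 0.05 (0.702%), with 86 higher in AGA (0.387%) and 70 lower (0.315%). That balance depended on the scaling: the deposited scale without quantile normalization gave 11 higher and 311 lower, with 77 of the 156 still called, and median-centred arrays gave 109 and 49. The fit took the replicate number as a block and let a robust prior variance follow the level. These calls rest on these choices: without the block 0 probe sets passed, with 1017 at an unadjusted p under 0.05, and with the block but neither the trend nor the robust prior 2 passed, with 2115. With the trend but not the robust prior 50 passed. The 156 included 121 genes, of which 65 were higher (0.543% of 11963 genes) and 56 lower (0.468%). The median size of a called difference was 0.58, and 21 of the 156 exceeded 1. All but 1 had the same sign in 4 of 4 pairs, beside 4046 of all 22215 probe sets. A call in a fit blocked by replicate number itself tends to bring this about. The 4 AGA arrays lay wholly on 1 side of the 4 vehicle arrays in 48 of the 156, against 560 of all probe sets (2.52%).

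**Figure D1:**
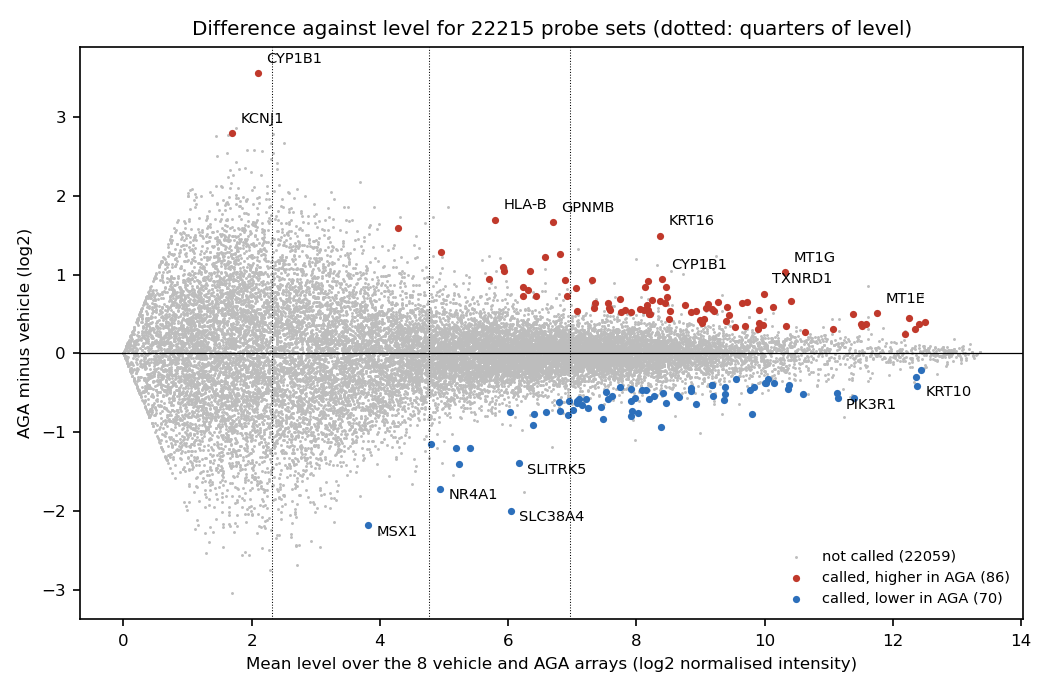
AGA minus vehicle (log2) against the mean level over the 8 arrays (log2 normalised intensity) for 22215 probe sets, with dotted lines that cut the levels into 4 equal groups. Red points are the 86 probe sets called higher in AGA and blue points the 70 called lower, and most lie in the brightest groups, where differences scatter least.

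Most calls were of well-expressed genes. In the dimmest 25% of probe sets the median residual SD was 1.06 and 2 were called, probe sets of CYP1B1 and KCNJ1. In the brightest 25% the median residual SD was 0.136, and 68 were called higher and 54 lower (2.2%). The 1.01% of all genes set beside each list below covers every level and was not matched to the level of its members. The differences of the 4 pairs correlated with each other across probe sets by a median r of 0.012 in the dimmest 25% and 0.31 in the brightest (0.15 to 0.50), as a description of arrays whose probe sets are not independent. Among the brightest, 28.8% of probe sets had the same sign in all 4 pairs, against 9.4% of the dimmest. Where a gene with a call had several probe sets above the median level, they all pointed the same way in 53 of 65 genes (81.5%), beside 56% over all genes, although a call itself tends to put them on 1 side.

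**Figure D2:**
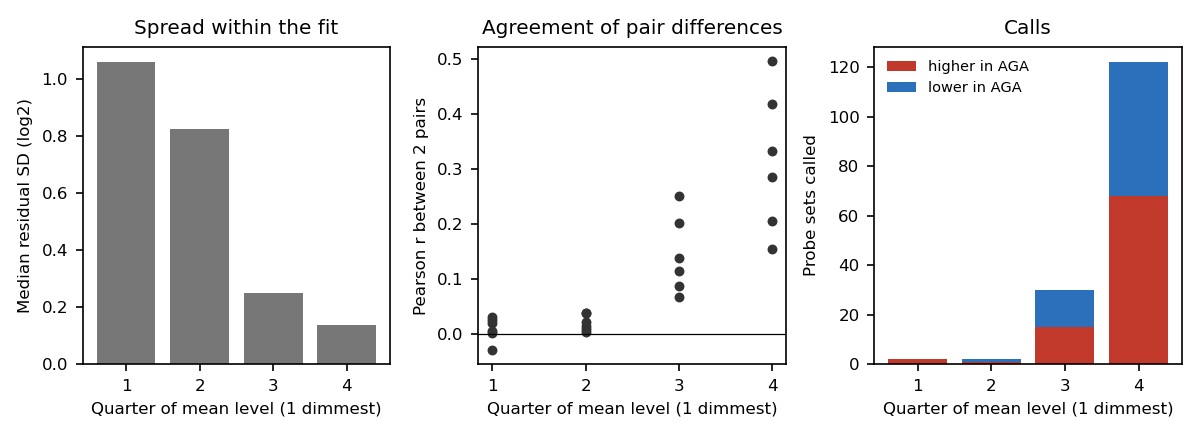
Median residual SD of the fit (left, bars), Pearson r between the differences of each of the 6 couples of pairs (middle, points) and probe sets called (right, bars) in each of the 4 groups by mean level. The spread falls and the pairs resemble each other more as level rises, and 122 of the 156 calls lie in the brightest group.

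Leaving out arrays decided many calls. The count ran from 26 without AGA 3 to 232 without AGA 1, and was 28 without vehicle 3 and 34 without vehicle 4. Without all arrays of replicate 3 it was 7, and without those of replicate 4 it was 44. Of the 69 named probe sets with a call, 50 lost it without AGA 3 and 49 without vehicle 3. The 13 that kept it without each of the 12 arrays in turn were 1 each of ATP1B1, CCDC51, CYP1B1, GPNMB, HLA-B, MT1E, MT1X, NPC2, SLC38A4, SLITRK5 and TXNRD1 and 2 of MT1F. Those of GPNMB, SLC38A4, CCDC51 and MT1E also kept it without each replicate number. On the deposited scale 30 of the 69 passed, and among the 13 the calls of ATP1B1, CCDC51, MT1E, MT1F, MT1X, NPC2 and TXNRD1 were lost (adjusted p 0.0885 to 0.219) with their sign kept. Below, a gene said to have risen or fallen passed in the fit over all 12 arrays, and its paragraph names the arrays whose removal ended the call.

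**Figure D3:**
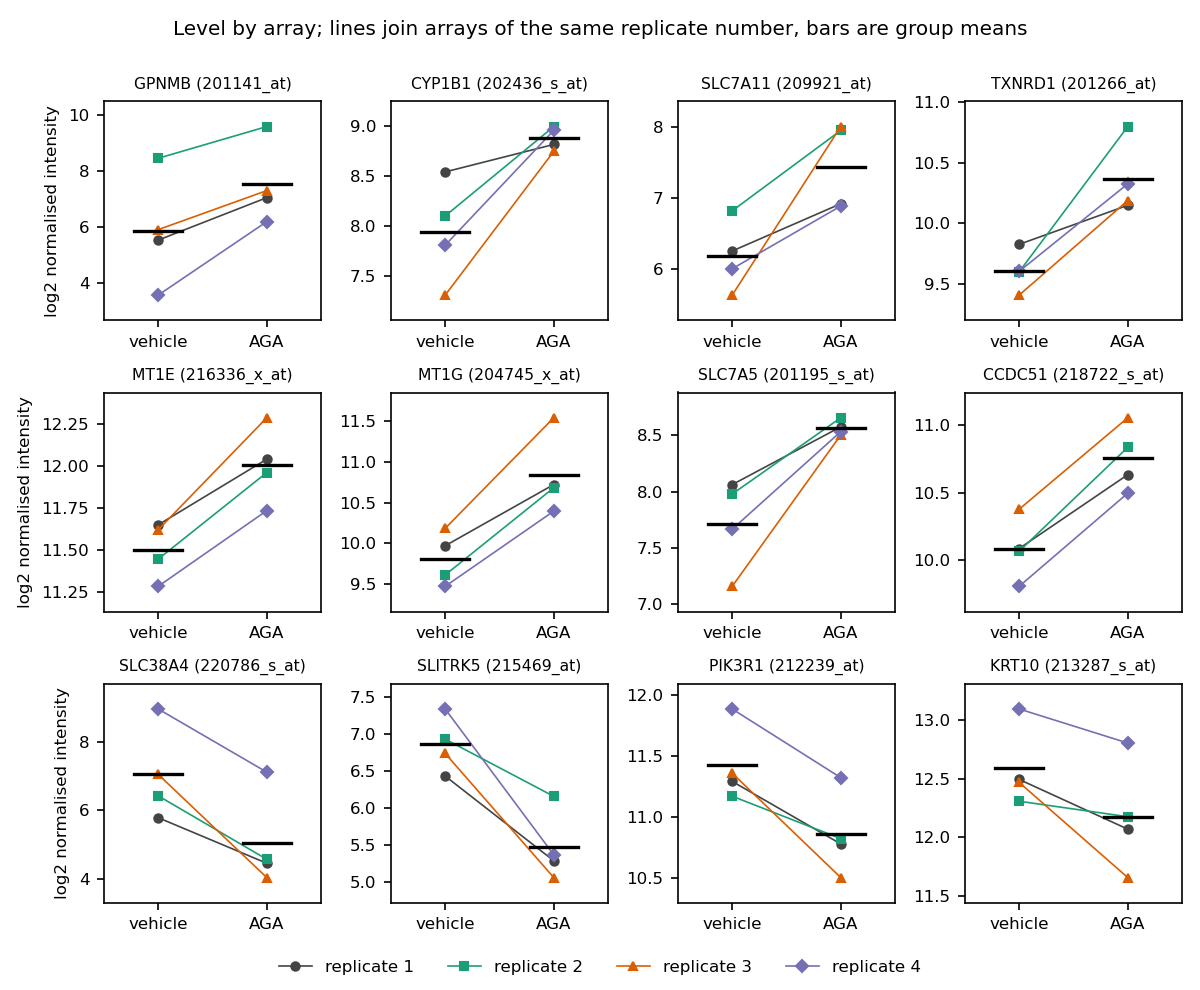
Level (log2 normalised intensity) of 12 called probe sets on each vehicle and AGA array, with lines joining arrays of the same replicate number and black bars at the group means. All 4 lines run upward in the panels of the first 2 rows and downward in those of the last row, while replicate numbers start from different levels, as for GPNMB from 3.57 to 8.46 in vehicle.

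Metallothioneins, small cysteine-rich proteins that bind zinc and copper, were the list with the largest share of members called. Of 19 genes for metallothioneins and zinc handling, 5 rose and 0 fell (26.3%, against 1.01% of all genes), with a median difference of 0.37 against 0.01 over all genes. All 5 were metallothioneins, out of 8 measured, and none of the 11 zinc transporters and regulators passed. The related MT1HL1, chosen after its values were seen, rose by 0.45 (0.0084, lost without vehicle 3 or AGA 3, up to 0.0615), differed by 0.15 in Aza and did not pass against Aza (0.0533). MT1G was at 9.97, 9.61, 10.18 and 9.47 on vehicle arrays 1 to 4 and at 10.72, 10.68, 11.54 and 10.39 on the AGA arrays. The groups did not overlap, and MT1G rose by 1.03 ± 0.15 (SE, n = 4; limma adjusted p = 0.0084), which is 2.04-fold. MT1E, on the probe set with the larger change, was at 11.65, 11.45, 11.62 and 11.28 in vehicle and 12.04, 11.96, 12.29 and 11.73 in AGA. Again every AGA array was above every vehicle array, with a rise of 0.51 ± 0.061 (SE; limma adjusted p = 0.00172). MT1E rose by 0.31 on its other probe set, MT1F by 0.59 and 0.51 on its 2 probe sets, MT1X by 0.37 and MT2A by 0.40, from vehicle levels of 9.11 to 12.31. The other MT1X probe set differed by 0.28 (limma adjusted p = 0.0681). The other MT1G probe set, at a mean level of 2.27, differed by -0.18. The pairs of replicate 3 had the largest rise in MT1G (1.36), MT1E (0.67) and MT1X (0.53). MT1G lost its call without vehicle 3 (adjusted p = 0.0597), the second MT1E probe set without vehicle 3, vehicle 4 or AGA 3 (0.0531 to 0.0597), and MT2A without vehicle 2, vehicle 3, AGA 2 or AGA 3 (0.0604 to 0.0974). The called probe sets of MT1E, MT1F, MT1X, MT1G and MT2A carry the suffix x_at, which Affymetrix gives where probes can match related transcripts. These near-identical genes are therefore uncertain as single genes. Of the other members, MT1H differed by 0.86 (limma adjusted p = 0.181), the zinc exporter SLC30A1 by 0.41 (0.0655) and the metal-sensing factor MTF1 by -0.15 (0.79). In Aza the 7 called probe sets of these 5 metallothioneins differed from the shared vehicle arrays by -0.03 to 0.11. AGA exceeded Aza in each, with limma adjusted p from 0.00186 for MT1X to 0.0168 for the second MT1E probe set.

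Metallothionein promoters carry metal response elements, short sites to which MTF1 binds. The promoters of MT2A and MT1X are shown because both genes rose. In these RefSeq sequences (GRCh38.p14, plus strand) capitals mark each match to TGCNCNC on either strand. MT2A, chr16:56608334-56608583, is the 250 bases before the gene's start, and MT1X, chr16:56682312-56682431, the stretch with its matches:
MT2A: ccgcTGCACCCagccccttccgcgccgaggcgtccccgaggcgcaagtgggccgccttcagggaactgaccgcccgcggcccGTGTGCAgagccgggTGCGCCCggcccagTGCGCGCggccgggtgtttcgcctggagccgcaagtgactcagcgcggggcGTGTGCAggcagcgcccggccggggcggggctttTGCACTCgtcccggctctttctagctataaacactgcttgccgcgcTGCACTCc
MT1X: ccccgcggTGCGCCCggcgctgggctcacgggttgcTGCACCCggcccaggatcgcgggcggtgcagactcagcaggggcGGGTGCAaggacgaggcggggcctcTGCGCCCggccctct
MT2A has 7 matches within 250 bases and MT1X has 4, and MT1H, which did not pass, has 8. At least 1 match occurred in 55.3% of 9563 promoters of genes on the array, at least 4 in 1.89% and at least 7 in 0.0627%, that is in 6 promoters. A match describes these letters and is not evidence that the site is bound. MT1E, MT1F and MT1G had no entry in the promoter table.

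Genes of the antioxidant response, which the factor NRF2 switches on in response to electrophiles and oxidants, had the highest list median here, although that of metallothioneins and zinc handling was higher on the deposited scale (0.20) and with median-centred arrays (0.48). Of 30 measured, 5 rose and 0 fell (16.7%, against 1.01% of all genes), and 27 lay above 0. The list median was 0.45 (0.17 on the deposited scale and 0.46 with median-centred arrays). TXNRD1, the selenoenzyme that reduces thioredoxin, was at 9.82, 9.60, 9.40 and 9.60 in vehicle and at 10.15, 10.80, 10.19 and 10.33 in AGA. All AGA arrays were above all vehicle arrays, and the rise was 0.76 ± 0.11 (SE, n = 4; limma adjusted p = 0.00547), or 1.69-fold. SLC7A11, the cystine importer that feeds glutathione synthesis, was at 6.25, 6.82, 5.63 and 6.0 in vehicle and at 6.92, 7.95, 8.00 and 6.88 in AGA, on the probe set with the larger change. The groups did not overlap, although AGA 4 was only slightly above vehicle 2, and the rise was 1.26 ± 0.21 (SE; limma adjusted p = 0.0124). Its other called probe set rose by 0.93. The glutathione transferase GSTM3 rose by 0.72, the quinone reductase NQO1 by 0.63 and the ferritin light chain FTL by 0.38 and 0.25. NQO1 was the exception in direction, since its replicate 1 pair went from 9.40 to 9.31. HMOX1, the haem oxygenase, differed by 1.09 with a limma adjusted p of 0.054, the aldo-keto reductases AKR1C1 and AKR1C3 by 1.01 (0.179) and 1.03 (0.335), and the glutamate-cysteine ligase subunits GCLC and GCLM by 0.44 (0.12) and 0.41 (0.322). NFE2L2, which encodes NRF2, differed by -0.21 (0.306). SLC7A11 lost its call without AGA 3 (0.0837) and its second probe set without any array but AGA 1, Aza 1 or Aza 4 (up to 0.207), NQO1 without any but vehicle 1 or AGA 1 (up to 0.21), GSTM3 without any of the 12 (up to 0.233), and FTL without vehicle or AGA 2, 3 or 4 on the probe set with the larger change (up to 0.102) and without these, vehicle 1 or Aza 2 on the other (up to 0.195). TXNRD1 differed from the shared vehicle by 0.26 in Aza, and AGA exceeded Aza (limma adjusted p = 0.0467).

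The antioxidant response element is shown where it occurred in the promoter of a gene that rose and that carries cystine or thioredoxin chemistry, TXNRD1, and of SLC3A2, the partner chain of the cystine importer. Capitals mark TGACNNNGC in RefSeq sequence of GRCh38.p14, plus strand, at chr12:104215655-104215713 for TXNRD1 and chr11:62881637-62881695 for SLC3A2:
TXNRD1: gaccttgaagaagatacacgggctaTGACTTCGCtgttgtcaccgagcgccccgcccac
SLC3A2: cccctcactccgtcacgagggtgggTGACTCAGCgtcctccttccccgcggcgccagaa
The motif was in 12.5% of 48 promoters of genes called higher and 16.3% of 43 of genes called lower, beside 11.9% of array genes, so its share was near the background on both sides.

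Amino acid transporters moved in opposite directions. SLC7A5 and SLC3A2 encode the light and heavy chain of the exchanger that imports leucine and other large neutral amino acids. SLC7A5 was at 8.06, 7.98, 7.16 and 7.67 in vehicle and at 8.57, 8.65, 8.50 and 8.53 in AGA. The AGA arrays were tightly grouped and all above vehicle, and the rise was 0.85 ± 0.14 (SE, n = 4; limma adjusted p = 0.00922). SLC3A2 was at 8.03, 8.29, 8.34 and 7.82 in vehicle and at 8.45, 9.19, 8.92 and 8.50 in AGA. It rose by 0.64 ± 0.11 (SE; limma adjusted p = 0.0124), again with no overlap. SLC38A4, a transporter of small neutral amino acids, fell from 5.78, 6.42, 7.04 and 8.95 in vehicle to 4.46, 4.57, 4.04 and 7.11 in AGA. Replicate 4 stood high in both groups, so the groups overlapped, while each pair fell, by 1.33, 1.85, 3.00 and 1.84. The difference was -2.0 ± 0.21 (SE; limma adjusted p = 0.00113), the lowest p of the named genes. In Aza SLC38A4 differed from the same vehicle arrays by -0.30, and AGA was below Aza (limma adjusted p = 0.000974). TRIB3, a pseudokinase induced by the stress factor ATF4, rose by 1.05 (0.0488). In total 4 of 44 genes of ATF4 targets and amino acid supply rose and 1 fell (11.4%, against 1.01% of all genes). SLC7A11, already counted with the antioxidant genes, is 1 of the 4. The list median was 0.14, which became -0.11 on the deposited scale, where the median of all probe sets was -0.24. The asparagine synthetase ASNS differed by 0.79 (limma adjusted p = 0.101), PHGDH of serine synthesis by 0.72 (0.202) and ATF4 itself by -0.05 (0.823), and 10 of 11 tRNA synthetases lay above 0 with none called. SLC7A5 lost its call without vehicle 3 or vehicle 4 (0.0524 and 0.0656), SLC3A2 without vehicle 2, vehicle 4 or AGA 3 (0.0642 to 0.0898), and TRIB3 without any vehicle array, AGA 2, 3 or 4, or Aza 2 or 3 (up to 0.261).

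Lysosomal genes were among those that rose. Of 61 lysosomal genes 5 rose and 0 fell (8.2%, against 1.01% of all genes), and 44 lay above 0. The list median was 0.17, which became -0.09 on the deposited scale. GPNMB, a glycoprotein of lysosomes and melanosomes, was at 5.54, 8.46, 5.91 and 3.57 in vehicle and at 7.05, 9.59, 7.30 and 6.19 in AGA. Replicate 4 was far below replicate 2 in vehicle, so the groups overlapped, yet the pairs rose by 1.51, 1.13, 1.39 and 2.62. The rise was 1.66 ± 0.19 (SE, n = 4; limma adjusted p = 0.0014), or 3.17-fold. NPC2, which hands cholesterol out of the lysosome, was at 9.18, 9.84, 9.49 and 8.83 in vehicle and at 9.65, 10.35, 10.02 and 9.89 in AGA. Its pairs rose by 0.47, 0.51, 0.53 and 1.06, a mean of 0.64 ± 0.089 (SE; limma adjusted p = 0.00444). PSAP, the precursor of the saposins that assist glycolipid breakdown, rose by 0.65 (0.00922), although its other probe set differed by only 0.11. The cathepsin CTSB rose by 0.49 and 0.43 on 2 of its 4 probe sets, while its brightest differed by -0.01, and the thioesterase PPT1 rose by 0.42. None of the 14 measured subunits of the proton pump passed, with a median of 0.13. Of 21 autophagy genes 0 passed with limma, and their median was 0.06 (-0.17 on the deposited scale). PSAP lost its call without vehicle 4 or AGA 3 (0.056 and 0.069), PPT1 without any vehicle array or AGA 2, 3 or 4 (up to 0.202), and both CTSB probe sets without vehicle or AGA 2, 3 or 4 or Aza 1 or 2, the 1 with the larger change also without Aza 3 (up to 0.185). AGA exceeded Aza in GPNMB (limma adjusted p = 0.00178), PSAP (0.0162) and NPC2 (0.0185), where Aza minus the shared vehicle was 0.27, 0.09 and 0.18.

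CYP1B1, a cytochrome P450 that hydroxylates oestradiol and aromatic hydrocarbons, was read on 4 probe sets, all above 0. The brightest was at 8.54, 8.10, 7.30 and 7.80 in vehicle and at 8.81, 8.99, 8.74 and 8.95 in AGA. The AGA arrays lay close together and above every vehicle array, and the rise was 0.94 ± 0.14 (SE, n = 4; limma adjusted p = 0.00547). The other 2 above the median level differed by 0.58 and 0.72 and did not pass. The dim one, with a mean level of 2.10, was at 1.07, 0, 0.05 and 0.16 in vehicle and at 4.80, 3.99, 3.40 and 3.35 in AGA, a called rise (0.0145) whose size of 3.56 is set by the floor, at or near which the vehicle arrays lie, and which was lost without vehicle 2, vehicle 3, vehicle 4 or AGA 3 (0.0524 to 0.0792). In Aza the brightest probe set differed by -0.38 from the shared vehicle arrays, and AGA exceeded Aza by 1.32 (limma adjusted p = 0.000426). Of 12 genes of the aryl hydrocarbon receptor list, CYP1B1, NQO1 and SLC7A5 rose (25%, against 1.01% of all genes), the last 2 also counted above. The list median was 0.06 (-0.22 on the deposited scale). CYP1A1, the receptor's best known target, differed by -0.51 (0.787), TIPARP by -0.18 (0.454) and the receptor AHR by 0.32 (0.603).

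Genes that present peptides on MHC class I molecules were all above 0. Of 18 measured 3 rose and 0 fell (16.7%, against 1.01% of all genes). The list median was 0.42 (0.16 on the deposited scale, 0.44 with median-centred arrays). HLA-B, on the probe set that passed, was at 3.52, 5.31, 4.75 and 6.21 in vehicle and at 5.29, 6.54, 7.46 and 7.29 in AGA. Its pairs rose by 1.77, 1.23, 2.71 and 1.08, with overlap between the groups, and the rise was 1.70 ± 0.24 (SE, n = 4; limma adjusted p = 0.00533). HLA-C rose by 1.10 (0.0205) and HLA-G by 1.05 (0.0314), each on 1 of 4 probe sets, and the brightest probe sets of HLA-B, HLA-C and HLA-G differed by 0.79 (0.146), 0.71 (0.0959) and 0.61 (0.131). These heavy-chain genes are near-identical and read by x_at probe sets, so which of them rose is uncertain. HLA-C lost its call without vehicle 2, 3 or 4 or AGA 2, 3 or 4 (up to 0.14) and HLA-G without those or vehicle 1 (up to 0.202). The light chain B2M, which all of them share, differed by 0.18 (0.261), the peptide transporter TAP1 by 0.44 (0.422) and the immunoproteasome subunit PSMB9 by 1.74 (0.194). The median over the list was 0.08 in the replicate 1 pair, 0.13 in replicate 2, 1.04 in replicate 3 and 0.44 in replicate 4, so pair 3 was far above pair 1. Of 37 interferon targets 0 passed with limma, with a median of 0.38 that was -0.01 in replicate 1 and 0.64 in replicate 3. The 3 lowest p among them were those of ISG15 (0.50), IFIT3 (0.80) and IRF9 (-0.53), with adjusted p from 0.176 to 0.187. Among 22 NF-kB targets and cytokines 0 passed, and the pair medians ran from -0.54 in replicate 2 to 0.99 in replicate 3.

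Mitochondrial respiration genes shifted little but evenly. Of 56 subunits of the respiratory chain and ATP synthase, 51 lay above 0, and 4 rose and 0 fell (7.14%, against 1.01% of all genes). The list median was 0.16, with pair medians from 0.10 to 0.18. On the deposited scale that median was -0.07, still above the -0.24 of all probe sets. NDUFA1 of complex I was at 9.55, 9.63, 10.21 and 9.95 in vehicle and at 10.22, 10.41, 10.51 and 10.58 in AGA. All AGA arrays exceeded all vehicle arrays, if barely, and the rise was 0.60 ± 0.11 (SE, n = 4; limma adjusted p = 0.0186). COX6C of complex IV rose by 0.31, NDUFB2 of complex I by 0.34 and ATP5MC3 of the ATP synthase by 0.35, the last on 1 of 2 probe sets. Each lost its call without several arrays: NDUFA1 without vehicle 1, 2 or 4 or AGA 2 or 4 (up to 0.0767), COX6C without any vehicle array, AGA 2, 3 or 4, or Aza 2 (up to 0.142), ATP5MC3 without any but vehicle 3 (up to 0.192) and NDUFB2 without any of the 12 (up to 0.218). In Aza, NDUFA1 and COX6C differed from the shared vehicle arrays by 0.31 and 0.24, and AGA did not pass against Aza (limma adjusted p = 0.3 and 0.723). Cytosolic ribosomal proteins had 0 of 38 called, a median of -0.01 (0.18 with median-centred arrays) and values from -0.12 to 0.11 for the brightest probe set of each gene. Proteasome subunits had 0 of 26 called and a median of 0.09 (-0.13 on the deposited scale).

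Carbohydrate, lipid and protein folding genes had 1 or 2 members called in each list. The glucose transporter SLC2A1 rose by 0.58 and the collagen prolyl hydroxylase P4HA2 by 0.53, 2 of 29 genes of glycolysis and the hypoxia response (6.9%, against 1.01% of all genes). P4HA2 was at 8.31, 9.09, 8.49 and 8.80 in vehicle and at 8.82, 9.45, 9.10 and 9.45 in AGA (limma adjusted p = 0.0084), and AGA exceeded Aza (0.00368). SC5D of cholesterol synthesis rose by 0.64, 1 of 23 (4.35%), and CRELD2, an endoplasmic reticulum protein induced when folding is disturbed, by 0.67, 1 of 30 (3.33%). P4HA2 lost its call without vehicle 4 or AGA 3 (0.0554 and 0.0656), CRELD2 without any vehicle array or AGA 2, 3 or 4 (up to 0.14), and SC5D and SLC2A1 without those or Aza 1 or 2 (up to 0.203 and 0.177). Heat shock chaperones had 0 of 18 called with limma and a median of -0.07 (0.04 with median-centred arrays), and p53 targets 0 of 15 and a median of 0.03 (-0.22 on the deposited scale).

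Other genes that rose on probe sets above the median level belonged to none of these groups. CCDC51, a potassium channel protein of mitochondria, was at 10.09, 10.07, 10.38 and 9.81 in vehicle and at 10.63, 10.84, 11.05 and 10.50 in AGA. The groups did not overlap, the pairs rose by 0.55, 0.77, 0.68 and 0.69, and the mean rise was 0.67 ± 0.083 (SE, n = 4; limma adjusted p = 0.00194). ATP1B1, the beta chain of the sodium pump, went from 8.82, 9.84, 9.50 and 7.66 to 9.50, 10.21, 10.27 and 8.44. Replicate 4 was low in both groups, so they overlapped, and the rise was 0.65 ± 0.09 (SE; limma adjusted p = 0.00444). AGA exceeded Aza in ATP1B1 (0.000974), where Aza minus the shared vehicle was -0.11. IGFBP7, a secreted protein of the IGF-binding family, rose by 1.22 and 0.69 on 2 of 3 probe sets, with the largest pair differences in replicates 3 and 4. FHL2, a LIM-domain cofactor, rose by 0.83 (0.0124) and PPCS of coenzyme A synthesis by 0.72 (0.0198). RANBP3, a nuclear transport factor, rose by 1.28 on 1 probe set, at a mean level of 4.96. Its other 3 differed by -0.15 to 0.03, and the brightest of them, at 5.92, by -0.07. FHL2 lost its call without vehicle 3, vehicle 4 or AGA 3 (0.0656 to 0.0898), PPCS without vehicle 3 or 4 or AGA 3 or 4 (up to 0.124), IGFBP7 without those or AGA 2 on its brighter probe set (up to 0.149) and without any array but vehicle 2 or AGA 1 on the other (up to 0.211), and RANBP3 without any but vehicle 2 or Aza 2 (up to 0.151).

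**Figure D4:**
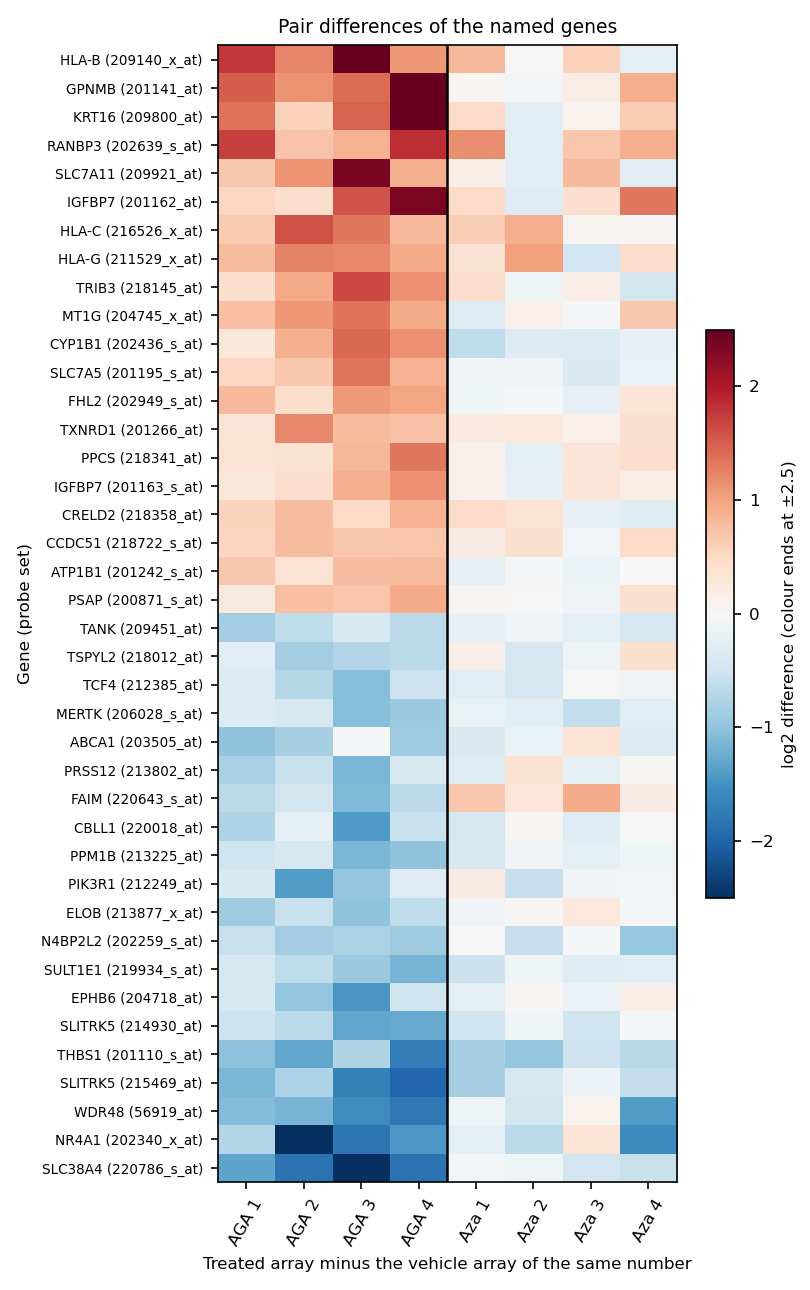
Difference between each treated array and the vehicle array of the same number (log2, colour from blue for lower to red for higher, ending at 2.5) for the genes named by size of change, with 4 AGA columns on the left and 4 Aza columns on the right that share the same vehicle arrays. The 4 AGA columns have 1 colour per row because the naming rule required it, and FAIM is blue in AGA and red in Aza.

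Of 13 keratins, the intermediate filament proteins of epithelia, 1 rose and 1 fell (15.4%, against 1.01% of all genes). KRT16, a keratin of stressed and proliferating epidermis, went from 6.53, 7.57, 7.70 and 8.71 in vehicle to 7.88, 8.15, 9.17 and 11.28 in AGA. Replicate 4 had the highest level in both groups and the largest rise, 2.57 against 0.59 in replicate 2, and the mean rise was 1.5 ± 0.24 (SE, n = 4; limma adjusted p = 0.0221). Without replicate 4 the rise of KRT16 was 1.14 (0.0136), and its call was lost without vehicle 1, vehicle 3 or AGA 3 (0.0767 to 0.115). KRT10, a keratin of differentiating layers, was at 12.49, 12.31, 12.47 and 13.10 in vehicle and at 12.07, 12.18, 11.66 and 12.80 in AGA on its brightest probe set. It fell by 0.41 and, on another, by 0.30 (limma adjusted p = 0.0192 and 0.0084), and its other probe set differed by -0.36 (0.101). The 5 keratins of differentiated layers all lay below 0, from -2.26 to -0.41, but only KRT10, with the smallest difference of them, passed. KRT10 lost its call without vehicle 3 or AGA 3 (0.0524 and 0.0656) and, on the brightest probe set, also without vehicle 1 or vehicle 4 (up to 0.0959). The basal keratins KRT5 and KRT14 differed by 0.01 (0.975) and 0.74 (0.358) and the luminal KRT18 by 0.49 (0.158).

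Among genes that fell, PIK3R1, the regulatory subunit of phosphoinositide 3-kinase, passed on all 3 of its probe sets. The largest difference was from 9.94, 10.28, 9.93 and 10.59 in vehicle to 9.55, 8.88, 8.97 and 10.27 in AGA, with replicate 4 overlapping the vehicle range. It fell by 0.77 ± 0.14 (SE, n = 4; limma adjusted p = 0.0244), and the other probe sets of PIK3R1, at levels of 11.14 and 11.13, by 0.57 and 0.50 (0.00396 and 0.00547). SLITRK5, a neuronal-type transmembrane protein, was at 6.43, 6.93, 6.74 and 7.34 in vehicle and at 5.29, 6.16, 5.06 and 5.37 in AGA on the probe set with the larger change. The groups did not overlap, and SLITRK5 fell by 1.40 ± 0.21 (SE; limma adjusted p = 0.00547) and by 0.94 on its other probe set. TCF4, a basic helix-loop-helix factor, fell by 0.66 on 1 of 7 probe sets above the median level (0.0428), and all 7 differed by -0.66 to -0.29. PIK3R1 lost its call on the first of these without vehicle 3 or AGA 3 (0.138 and 0.142) and kept it on the other 2 without each of the 12 arrays, the other SLITRK5 probe set without the same arrays (0.0524 and 0.0552), and TCF4 without any but AGA 1 or Aza 3 (up to 0.202).

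Signalling genes among the falls included THBS1, NR4A1, PPM1B and MERTK. THBS1, the matrix glycoprotein thrombospondin, fell from 6.80, 6.17, 6.08 and 4.98 to 5.78, 4.87, 5.33 and 3.25, by 1.2 ± 0.21 (SE, n = 4; limma adjusted p = 0.0158). Replicate 4 was low in both groups. In Aza THBS1 differed by -0.75 from the shared vehicle arrays, and AGA did not pass against Aza (0.443). Of 23 YAP and SRF targets FHL2 rose and THBS1 fell (8.7%, against 1.01% of all genes), with a list median of -0.03 (-0.29 on the deposited scale). THBS1 was also the only called member of 26 genes of the TGF-beta pathway (3.85%), whose median was 0.07 (-0.21 on the deposited scale). NR4A1, an immediate early nuclear receptor, went from 7.02, 7.01, 5.45 and 3.72 to 6.29, 4.11, 3.65 and 2.28, with pair falls from 0.73 to 2.89. It fell by 1.72 ± 0.36 (SE; limma adjusted p = 0.0428), while its other probe sets, both below the median level, differed by 0.35 and -1.07. NR4A1 was the only called member of 36 immediate early and MAPK feedback genes (2.78%, against 1.01% of all genes). The median of that list was -0.27, with pair medians from -0.47 to 0.33. FOSB differed by -2.30 (0.0827), FOS by -1.01 (0.0877) and EGR1 by -1.10 (0.3). The phosphatase PPM1B fell by 0.76 (0.0124) on 1 probe set, while its brighter one differed by -0.17 (limma adjusted p = 0.467). The receptor kinase MERTK fell by 0.68 (0.021) on its brightest probe set. Its others differed by -0.54 (0.186) and, at a level of 2.84, by 0.78. EPHB6, an ephrin receptor, fell by 0.84 (0.0198) and TANK, a regulator of TRAF signalling, by 0.64 (0.023), the latter on 1 of 3 probe sets, with 0.09 on the brightest. Calls were lost without any vehicle array for THBS1 (0.0514 to 0.0778), without vehicle 3, vehicle 4 or AGA 3 for PPM1B (up to 0.0919), without any vehicle array, AGA 2 or 3, or Aza 1 or 2 for NR4A1 (up to 0.207), without vehicle or AGA 3 or 4 for MERTK (up to 0.143), without vehicle or AGA 2 or 3 for EPHB6 (up to 0.139), and without any vehicle array or AGA 1 or 2 for TANK (up to 0.103).

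FAIM, an inhibitor of apoptosis, fell in AGA and was lower there than in Aza. It was at 8.25, 8.28, 8.62 and 8.03 in vehicle and at 7.58, 7.82, 7.51 and 7.38 in AGA, with no overlap, and fell by 0.73 ± 0.15 (SE, n = 4; limma adjusted p = 0.0409). In Aza it differed by 0.53 from the shared vehicle arrays, and AGA lay below Aza by 1.25 (limma adjusted p = 0.000974). The call against vehicle was lost without any vehicle array, AGA 1 or 3, or Aza 1 (0.0598 to 0.195). Further falls were those of the lipid exporter ABCA1 (0.69), the serine protease PRSS12 (0.72), the nuclear protein TSPYL2 (0.64) and the ubiquitin ligase CBLL1 (0.74). Each went the same way in 4 of 4 pairs, which the naming rule required. N4BP2L2 fell by 0.78 on 1 of 5 probe sets, the dimmest, while the 3 brightest differed by -0.27 to -0.23 and another by 0.46. The elongin subunit ELOB fell by 0.77 and the deubiquitinase partner WDR48 by 1.41, each on 1 probe set. Another ELOB probe set, at a mean level of 11.18 against 6.41 for the called 1, differed by 0.19. The other 3 of WDR48 differed by -0.19 to 0.30. The brightest of these, at 6.97 against 5.23 for the called 1, differed by -0.09. Calls were lost without vehicle or AGA 1, 2 or 4 or Aza 1 or 2 for ABCA1, without vehicle 1, 3 or 4 or AGA 2 or 3 for PRSS12, and without vehicle or AGA 2, 3 or 4 for TSPYL2. They were lost without any array but AGA 2 for CBLL1 (up to 0.256), without vehicle 2, 3 or 4 or AGA 2 or 3 for N4BP2L2, without vehicle 1, 3 or 4 or AGA 3 for ELOB, and without vehicle 3 or 4 or AGA 3 for WDR48.

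Of 28 genes of the glucocorticoid response and steroid metabolism 0 rose and 2 fell (7.14%, against 1.01% of all genes), 1 of 14 in each role. The list median was 0.18 (-0.03 on the deposited scale), with 16 above 0, and that of steroid metabolism alone 0.44, with 10 of 14 above 0. SULT1E1, the sulfotransferase that inactivates oestrogens, fell from 8.92, 8.75, 8.36 and 7.22 to 8.48, 8.11, 7.44 and 6.05. Each pair fell, by 0.43, 0.63, 0.93 and 1.17, and the mean difference was -0.79 ± 0.13 (SE, n = 4; limma adjusted p = 0.0109). CEBPD, a glucocorticoid-induced transcription factor, fell by 0.33 (0.0287). Other glucocorticoid targets did not pass, among them FKBP5 (-0.02), TSC22D3 (0.13) and KLF9 (-0.60, limma adjusted p = 0.0867). SULT1E1 lost its call without vehicle 3, vehicle 4 or AGA 3 (0.0648 to 0.0717) and CEBPD without any vehicle array, AGA 3 or AGA 4 (up to 0.142).

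Genes of polarity and junctions had no call in limma, and of 14 connexins and pannexins listed 9 were measured, with a median of 0.40 (0.13 on the deposited scale) and 7 above 0. Among the latter the connexin GJB5 was closest, at 5.3, 5.17, 5.36 and 4.15 in vehicle and at 5.56, 6.35, 6.23 and 6.59 in AGA. The groups did not overlap, but the difference of 1.19 ± 0.27 (SE, n = 4) had a limma adjusted p of 0.0533, and vehicle 4 was low. GJA1, the connexin 43 gene and the brightest connexin, differed by 0.11 (0.709). Of apical polarity complexes 0 of 19 passed, of tight junction genes 0 of 14, of adherens junction genes 0 of 13, of desmosome genes 0 of 14, of hemidesmosome and basement membrane genes 0 of 15 and of apical surface genes 0 of 17, with medians of -0.03, -0.09, -0.03, 0.25, 0.03 and 0.03. On the deposited scale the last 3 medians were -0.02, -0.23 and -0.23. After GJB5 the lowest p over these 7 lists were those of the polarity GTPase CDC42 (0.32, limma adjusted p = 0.0765), the desmosomal cadherin DSG2 (0.44, 0.0916) and the recycling GTPase RAB11A (0.31, 0.112). Other CDC42 probe sets differed by -0.04 at a level of 6.93 and by -0.27 and -0.82 at levels of 3.23 and 2.10. Another RAB11A probe set, at a level of 6.33, differed by -0.26. A p above the threshold does not show that these genes were unaffected. FN1, the matrix protein fibronectin, rose by 0.62 and 0.54 on 2 of 6 probe sets. It was the 1 gene called among 34 of matrix and remodelling (2.94%, against 1.01% of all genes). FN1 lost its call without any array but AGA 2 on 1 of these probe sets and any but AGA 2, Aza 2 or Aza 4 on the other (up to 0.218). Mitosis and DNA replication genes had 0 of 30 and 0 of 29 called, with medians of -0.12 and -0.07. Squamous differentiation and S100 genes had 0 of 28 called, and S100A8, the largest of them by p, differed by 1.24 (0.114).

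**Figure D5:**
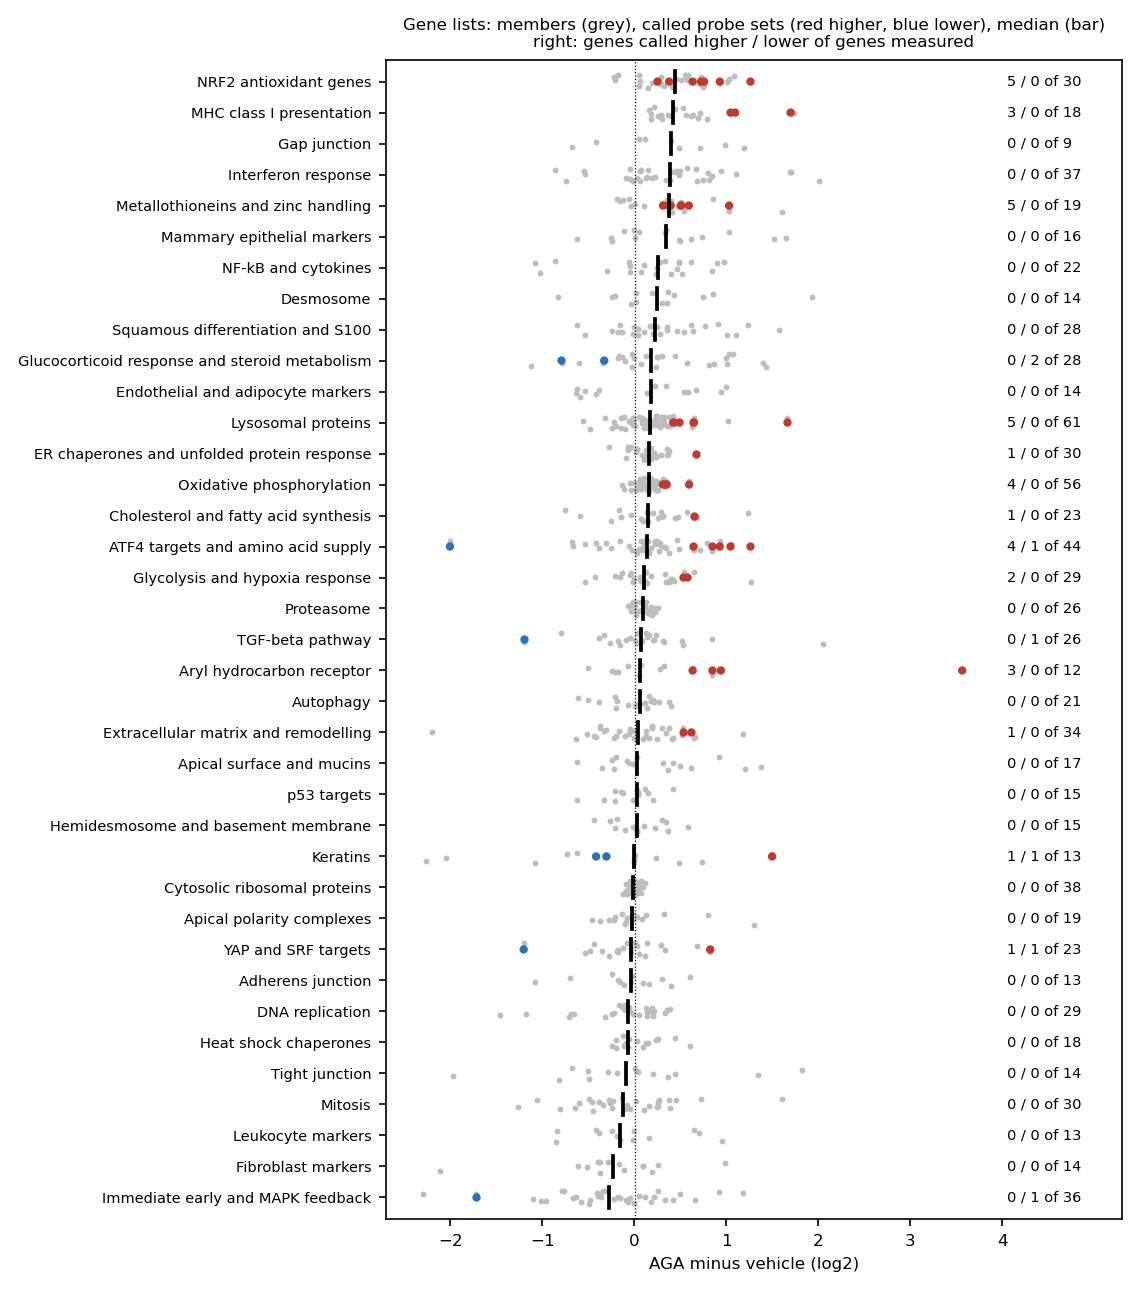
AGA minus vehicle (log2) for the brightest probe set of each member of 37 gene lists (grey), with called probe sets in red (higher) or blue (lower), list medians as black bars, the median of all genes dotted, and genes called higher / lower of those measured at the right. The NRF2 list has the highest median (0.45) in this normalization, though not in the other scalings, and the immediate early list the lowest (-0.27), and the junction and polarity lists have no coloured point.

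Some features of the called genes were not used by the comparison and are given without a test. The median gene span in the annotation was 17.1 kb for the 65 genes called higher, 37.8 kb for the 56 called lower and 28.9 kb for all genes, with wide overlap. Probe sets with the suffix x_at made up 27.9% of those called higher and 8.57% of those called lower, beside 10.9% of all tested, and metallothionein and HLA probe sets were among the former. Promoter motifs, searched on both strands in the 250 bases before the start, had shares near the background: the amino acid response element TGATGNAA was in 2.08% of genes called higher and 4.65% of those called lower (array genes 1.98%), the metal element TGCNCNC in 50% and 53.5% (55.3%), the lysosomal element TCACGTGA in 0% and 2.33% (1.52%), and the xenobiotic core GCGTG in 43.8% and 32.6% (41.7%).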

How the data were processed

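The authors' deposited values are linear intensity per probe set of an Affymetrix array with 22277 probe sets, made with GCOS per the submitters' processing notes, with no version or algorithm stated in the sources used here. Per the labels' protocols 2.25 µg of RNA was labelled per sample. The 62 AFFX control probe sets were left out; values under 1 were set to 1, log2 was taken and the 12 arrays were quantile normalized. Probe sets were fitted with limma 3.58.1 in R 4.3.3 (group plus replicate number; eBayes with trend and robust, two-sided), with Benjamini-Hochberg adjustment over all 22215 and a threshold of 0.05. The series design names FDR and Holm methods; Holm was an alternative. Of the probe sets, 19064 had 1 gene symbol, 1043 several and 2108 none.

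Above the median level, same-numbered arrays of different groups deviated together (r 0.355 to 0.781 in 12 of 12 pairs); over all probe sets 6 of 12 exceeded 0.1. The labels give the number and the deviations the pairing. Named genes were the 12 largest rises and falls above the median level and in the top 25% of level (called, 1 symbol, same sign in 4 of 4 pairs, 1 probe set per gene), every called list member, and up to 3 members of lowest p in lists without a call. The members, lists, fit and rule were chosen with earlier results of these data known. Alternatives were no block, no trend, other floors, scalings, filters, adjustment, and arrays or numbers left out. The fit was tested on simulated data for AGA against vehicle. It recovered 26.9% of 67 changes of 0.5 in log2, 79.1% of 67 changes of 1 and 95.5% of 66 changes of 2, with 6 false calls. Most changes of 0.5 were thus missed there.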

Additional observations from a re-analysis of the deposited data

Results flagged for a closer look

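In 262 groups of 4 arrays, over the named probe sets with or without a call, 14 had 1 array far from the other 3 by Dixon's ratio at its 95% critical value, and chance flags about 1 in 20 groups. Of these, 10 were vehicle arrays. Vehicle 4 was apart in CTSB at 8.42 (others 9.41 to 9.57), OPTN at 6.86 (others 7.40 to 7.51), GJB5 at 4.15 (others 5.17 to 5.36), S100A8 at 7.32 (others 4.30 to 4.42) and GJA3 at 1.09 (others at most 0.16). Vehicle 1 was apart in HSPA4 at 8.42 (others 8.12 to 8.16), IRF9 at 6.56 (others 6.0 to 6.09), GJD2 at 3.78 (others 4.53 to 4.68) and the dim CYP1B1 probe set at 1.07 (others at most 0.16). Vehicle 3 was apart in CLDN8 at 2.23 (others at most 0.06). On AGA arrays, replicate 4 was apart in MERTK at 7.98 (others 6.72 to 6.93) and TCF21 at 0.37 (others at 0), replicate 1 in ARVCF at 4.78 (others 1.26 to 1.45), and replicate 3 in CDC45 at 0.77 (others at 0).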

How the results depend on the processing

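The count of 156 probe sets called (86 higher, 70 lower) and the 189 called between AGA and Aza depended on the fit. Without the replicate block, trend and robust prior kept, the AGA and vehicle groups gave 0 (0 higher, 0 lower) and AGA against Aza 0. With the replicate block but neither trend nor robust prior, 2 passed (2 higher, 0 lower) and 2 against Aza. Without all 3, 2 passed (2 higher, 0 lower) and 3 against Aza. A trend without the robust prior gave 50 (26 and 24), and only the 8 vehicle and AGA arrays, which cannot give AGA against Aza, 46 (28 and 18). The deposited scale gave 322 (11 and 311), with 77 of the 156 still called and the median of all probe sets at -0.24, and median-centred arrays 158 (109 and 49). A floor of 16 gave 0 (0 and 0) and 0 against Aza. Leaving out the dim probe sets gave 250 (126 and 124), which held 152 of the 152 called ones still tested. Holm adjustment gave 9 (6 and 3) and 20 against Aza. Among alternatives chosen after seeing the data, the floor of 16 with dim probe sets left out gave 278 (137 and 141), the replicate block without trend, robust prior and dim probe sets 0 (0 and 0) and 81 against Aza, and no replicate block without dim probe sets 0 (0 and 0) and 0 against Aza. Leaving out 1 array or 1 replicate number gave 7 to 232 probe sets (3 to 124 higher, 4 to 108 lower) and 27 to 231 against Aza. Causes were not tested. The called probe sets that an alternative still tested kept their sign, except 1 of 156 with the floor of 16; 152 were tested where dim probe sets were left out and 91 with the brightest probe set per gene. For the named differences, 1117 alternatives lost a call, 29 gained one, 13 changed in another way and 2656 stayed the same. None of those that lost or gained a call reversed. The number of arrays limits precision.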

Other observations

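Beyond the naming rule, some genes were chosen by hand after their values were seen, with no list or test of a theme. The variant histone H2AZ1, at a level of 11.39, fell by 0.56 on 1 probe set and differed by -0.55 on the other (limma adjusted p of the first 0.0124, lost without vehicle 3, vehicle 4 or AGA 3). The cohesin subunit RAD21 fell by 0.45 on 1 of 2 probe sets (lost without vehicle 2, 3 or 4 or AGA 3 or 4). The acetyltransferase KAT6B fell by 0.58 on 1 of 4 (lost without vehicle 1, 3 or 4 or AGA 3 or 4). Genes of RNA processing were called in both directions. The splicing kinase CLK1 fell by 0.43 and RBM8A by 0.47, both lost without any vehicle array or AGA 2 or 3. The 4 probe sets of RBM8A above the median level differed by -0.47 to -0.04, and 1 of them passed. NUDT21 rose by 0.55 and PNN by 0.31. NUDT21 kept its call only without AGA 1 or Aza 3 and PNN only without AGA 1, and their other probe sets did not pass, at -0.27 for NUDT21 and at -0.11 and 0.01 for PNN.

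CDKN1C, a cell cycle inhibitor, was also chosen after its values were seen. It fell by 0.37 in AGA on its brightest probe set (limma adjusted p = 0.0457), and its 4 probe sets above the median level differed by -0.42 to -0.34. In Aza it differed by 0.39 from the same vehicle arrays. The call was kept only without AGA 1 or Aza 4. Rises chosen in the same way were those of the protease inhibitor CSTB (0.55, limma adjusted p = 0.00533, kept without each of the 12 arrays), the nucleotide-binding protein HINT1 (0.37, 0.0084, lost without vehicle 3, vehicle 4 or AGA 3) and the fatty acid ligase ACSL1 (0.56, 0.0198, lost without vehicle 2, 3 or 4 or AGA 3). Above the median level the 3 probe sets of HINT1 differed by 0.08 to 0.37 and the 2 of ACSL1 by 0.22 to 0.56, with 1 called in each gene.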
